A study of Mus musculus with 27 samples.

Results

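Gene expression in the colon was set against gene expression in the ileum of mice on control feed, over 5 colon and 4 ileum libraries of 27 libraries in the series. The libraries were taken by their region and diet labels, and 16597 of 52550 genes in the count table passed the filter on low counts in these 9 libraries. The animals were male C57BL/6 mice, an inbred strain, 6 weeks old at the start and acclimatised for 7 days. One diet group received standard feed and the other standard feed with arsenic at 30 ug/g, for 60 days, with 10 mice a diet. The groups used are colon and ileum on control feed, colon (4 libraries) and ileum (5 libraries) on arsenic feed, and cecum on control feed (4 libraries). The labels give no engineered allele. Whether the numbered libraries of different regions came from the same mice, and from which stretch of the colon or ileum each piece was cut, is not given in the sources used here. The main test treats colon and ileum libraries as unpaired. P-values measure only the spread between these libraries, which may be technical. Poly-A RNA of gut tissue was sequenced as paired reads of 150 bases with a kit that does not mark strand, so reads of overlapping and antisense genes cannot be told apart.

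The ileum is the last stretch of the small intestine. Its villi carry absorptive enterocytes that finish the digestion of sugars, peptides and fats, and it takes back bile acids and vitamin B12, while Paneth cells at the crypt base release alpha-defensins and lysozyme. The colon has no villi and normally no Paneth cells: it reclaims water and sodium, takes up short-chain fatty acids made by bacteria, and keeps bacteria away with thick mucus from goblet cells. Identity along the gut is kept by Hox genes and by transcription factors such as Gata4 in the small intestine.

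The region labels were checked against markers of the small intestine. Gata4 had 0.165, 1.63, 0.591, 1.84 and 1.31 CPM (counts scaled to 1000000 per library) in colon libraries 1 to 5, against 76.1, 65.8, 51.4 and 68.4 CPM in ileum libraries 1, 2, 3 and 5. The alpha-defensin Defa24 had 0, 0.116, 0, 35.7 and 0 CPM in the colon libraries, against 3341, 2759, 4480 and 3713 CPM in the ileum libraries. Both genes were far lower in every colon library than in any ileum library. They mark the small intestine, so they cannot tell a piece of colon from a piece of cecum. Library totals ran from 16842463 to 17744718 counts in the colon and from 15882378 to 18203875 in the ileum, and mitochondrial genes held 4.30 to 4.87% and 3.89 to 4.78% of them.

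The biological coefficient of variation was 0.251 among the colon libraries and 0.159 among the ileum libraries. Departures were counted on log2(CPM + 1), which leaves out many genes of low level. On that scale colon library 1 stood over 4-fold from the median of the other colon libraries in 166 genes. Colon library 4 did so in 148 genes and colon library 3 in 97, against 20 and 29 genes for colon libraries 2 and 5. Over the genes tested, the log2 CPM of colon library 1 correlated with the 4 cecum libraries at r = 0.959 to 0.964 and with the other colon libraries at 0.944 to 0.977, while colon library 3 correlated with the cecum libraries at 0.933 to 0.940. Colon library 1 lacked Hoxb13 (0 CPM) and held 13530 CPM of Car1, while colon libraries 3 and 4 held 249 and 229 CPM of Hoxb13 and 1276 and 1232 CPM of Car1. In colon library 4, 20 genes with at least 100 CPM in the ileum and almost nothing in the other colon libraries read at a median of 0.983% of their ileum mean (range 0.0422 to 2.31%). Each group of genes below was also counted without colon libraries 1 and 4, a choice made after seeing the data, and with each library left out in turn. A count is given again where it moved by over 1.5 times and was at least 5 before or after. Smaller counts also moved and are not given again.

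**Figure D1:**
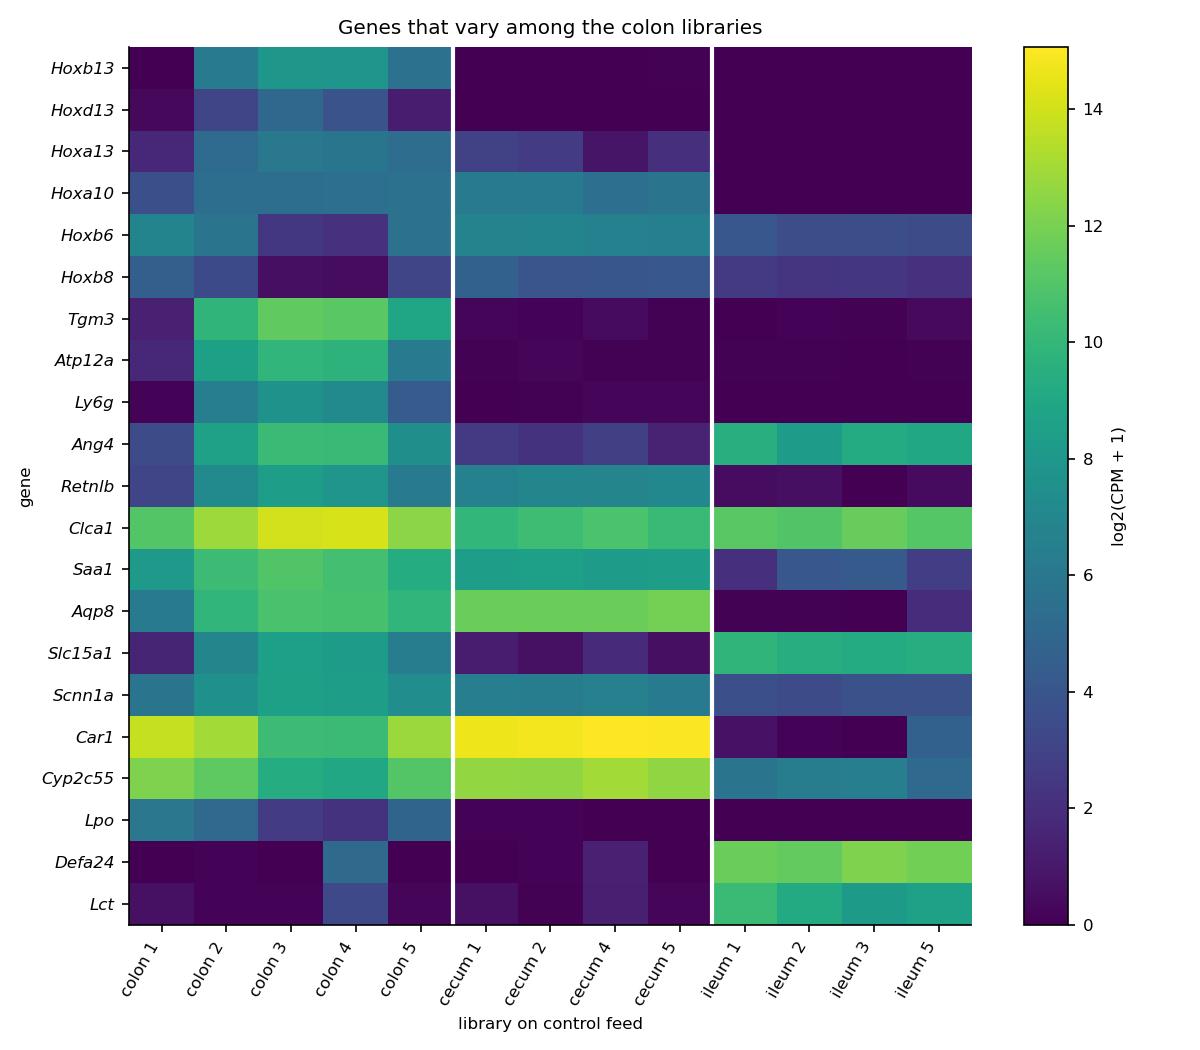
Level of 21 genes in each library as log2(CPM + 1), in columns for colon control 1 to 5, cecum control 1, 2, 4 and 5 and ileum control 1, 2, 3 and 5. Colon library 1 shares low Hoxb13, Atp12a and Tgm3 and high Car1 with the cecum libraries, colon libraries 3 and 4 show the opposite, and colon libraries 2 and 5 lie between them.

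With edgeR's quasi-likelihood test and a Benjamini-Hochberg adjusted p under 0.05, 4083 genes (24.6% of those tested) were higher in the colon and 3942 (23.8%) lower, together 48.4%. The median log2 fold change of all genes tested was -0.01. Called genes past 2-fold numbered 1938 higher (11.7%) and 1632 lower (9.83%), and those past 8-fold 339 higher (2.04%) and 355 lower (2.14%). In 3348 genes (20.2%) every colon library was above every ileum library, and in 3289 (19.8%) every colon library was below. Nearly as many genes were called as not, and a gene list is read below against these shares and this median. Lists were counted over the members that passed the filter. A gene read in one region alone passed through that region, so these counts describe the lists and do not test them. In whole tissue, fewer cells of a type and less RNA per cell cannot be told apart.

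Abundance per kilobase of exon was ranked without mitochondrial, predicted, clone-named, unnamed, immunoglobulin and T cell receptor genes. The 8 most abundant transcripts left in the colon were Lypd8, Car1, Krt8, Zg16, Mptx1, Clca1, Guca2a and Muc3. Lypd8, which keeps flagellated bacteria off the colonic epithelium, read at 10300 ± 1330 CPM per kb in the colon and 2310 ± 444 CPM per kb in the ileum (mean ± SD, n = 5 colon and 4 ileum libraries, as in all means that follow). Car1, a carbonic anhydrase of the colonic surface, read at 4980 ± 4140 CPM per kb in the colon and 5.09 ± 9.77 CPM per kb in the ileum. Mptx1, a pentraxin named here after its values were seen, read at 2910 ± 3160 CPM per kb in the colon and 1.40 ± 1.19 CPM per kb in the ileum, and its SD exceeded its mean in the colon. The 8 most abundant in the ileum were Fabp2, Apoa1, Defa24, Reg3b, Defa21, Lyz1, Defa22 and Fabp6, which are lipid carriers and Paneth cell or antimicrobial genes.

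The largest changes were ranked without predicted, clone-named, unnamed, immunoglobulin and T cell receptor genes, in both directions. The 15 largest called increases with groups that did not overlap and a mean of at least 10 CPM were Ly6g, Tgm3, Atp12a, Cyp2d34, Hoxa13, Hoxa10, Lpo, Insl5, Cyp2d12, Slc6a14, Aqp8, Car1, Cyp2d9, Fa2h and Sycn. Slc6a14, a broad transporter of neutral and cationic amino acids, had 917, 1107, 812, 797 and 1041 CPM in the colon libraries, against 0.120, 0.355, 0.666 and 0.568 CPM in the ileum libraries. It was among the most even of these genes across the colon libraries, and its log2 fold change was 11.08 ± 0.36 (SE; edgeR adjusted p = 2.78e-08). Fa2h, the fatty acid 2-hydroxylase of sphingolipid synthesis, had 333, 307, 257, 236 and 316 CPM in the colon libraries, against 0.181, 0.237, 0 and 1.02 CPM in the ileum libraries. Cyp2d34, a cytochrome P450, had 153, 463, 782, 758 and 415 CPM in the colon libraries, against 0, 0.178, 0 and 0.114 CPM in the ileum libraries, and its neighbours Cyp2d12 and Cyp2d9 were higher by 2820-fold (95% exact counting interval 779 to 23300) and 993-fold (95% exact counting interval 340 to 4820). All ileum counts of Cyp2d9 lay in library 3, and without it the fitted log2 fold change was 12.64, against 9.75 with it. The Cyp2d genes are close in sequence, so the split of reads among them is uncertain.

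Tgm3, a transglutaminase, had 1.65, 931, 2662, 2373 and 457 CPM in the colon libraries, against 0, 0.118, 0.0666 and 0.284 CPM in the ileum libraries. Ly6g, known as a neutrophil surface marker, had 0.110, 85.1, 202, 149 and 20.1 CPM in the colon libraries and 0 counts in every ileum library, which puts it at least 1970-fold higher against a floor of 3 counts over the ileum libraries. Both were near 0 in colon library 1 alone among the colon libraries. Ly6g was not called in the test against a 2-fold change (edgeR adjusted p = 0.0632), with no filter (0.0764) or with limma voom (0.106). S100a8 and S100a9, other genes of neutrophils, had 5 and 4 counts summed over the colon libraries and did not pass the filter. Which cells made Ly6g was not tested. Lpo, lactoperoxidase, went the other way among the colon libraries, with 62.01, 34.5, 5.50, 3.69 and 28.4 CPM and 0 counts in every ileum library (at least 597-fold higher).

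The 15 largest called decreases were Defa32, Defa2, Defa36, Defa37, Slc28a1, Fam151a, Defa34, Apoc3, Hsd17b6, Cyp2b10, Gimd1, Defa29, Defa30, Defa24 and Defa35. Of these, 9 are alpha-defensins, which are near-identical copies, and their separate counts are uncertain. Slc28a1, a nucleoside transporter that moves pyrimidines with sodium, had 0, 0.116, 0, 0.0559 and 0 CPM in the colon libraries, against 80.4, 29.3, 8.39 and 11.5 CPM in the ileum libraries. The colon libraries held so few counts that ileum over colon came to 963-fold (95% exact counting interval 329 to 4670), and its log2 fold change of -9.62 was -10.57 without colon library 2 and -8.63 without ileum library 1. Gimd1 had 0, 0, 0, 1.23 and 0 CPM in the colon libraries, against 173, 147, 93.2 and 135 CPM in the ileum libraries, and colon library 4 alone of the colon libraries had counts of it. Which genes were the 15 largest rests on the few reads of colon library 4. Without it the fitted log2 fold changes of Defa21 (-18.02), Defa22 (-16.33), Slc2a2 (-14.77), Olfm4 (-13.11) and Ugt2a3 (-13.10) were larger in size than those of Defa35 (-11.76), Apoc3 (-11.52) and Cyp2b10 (-10.65).

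**Figure D2:**
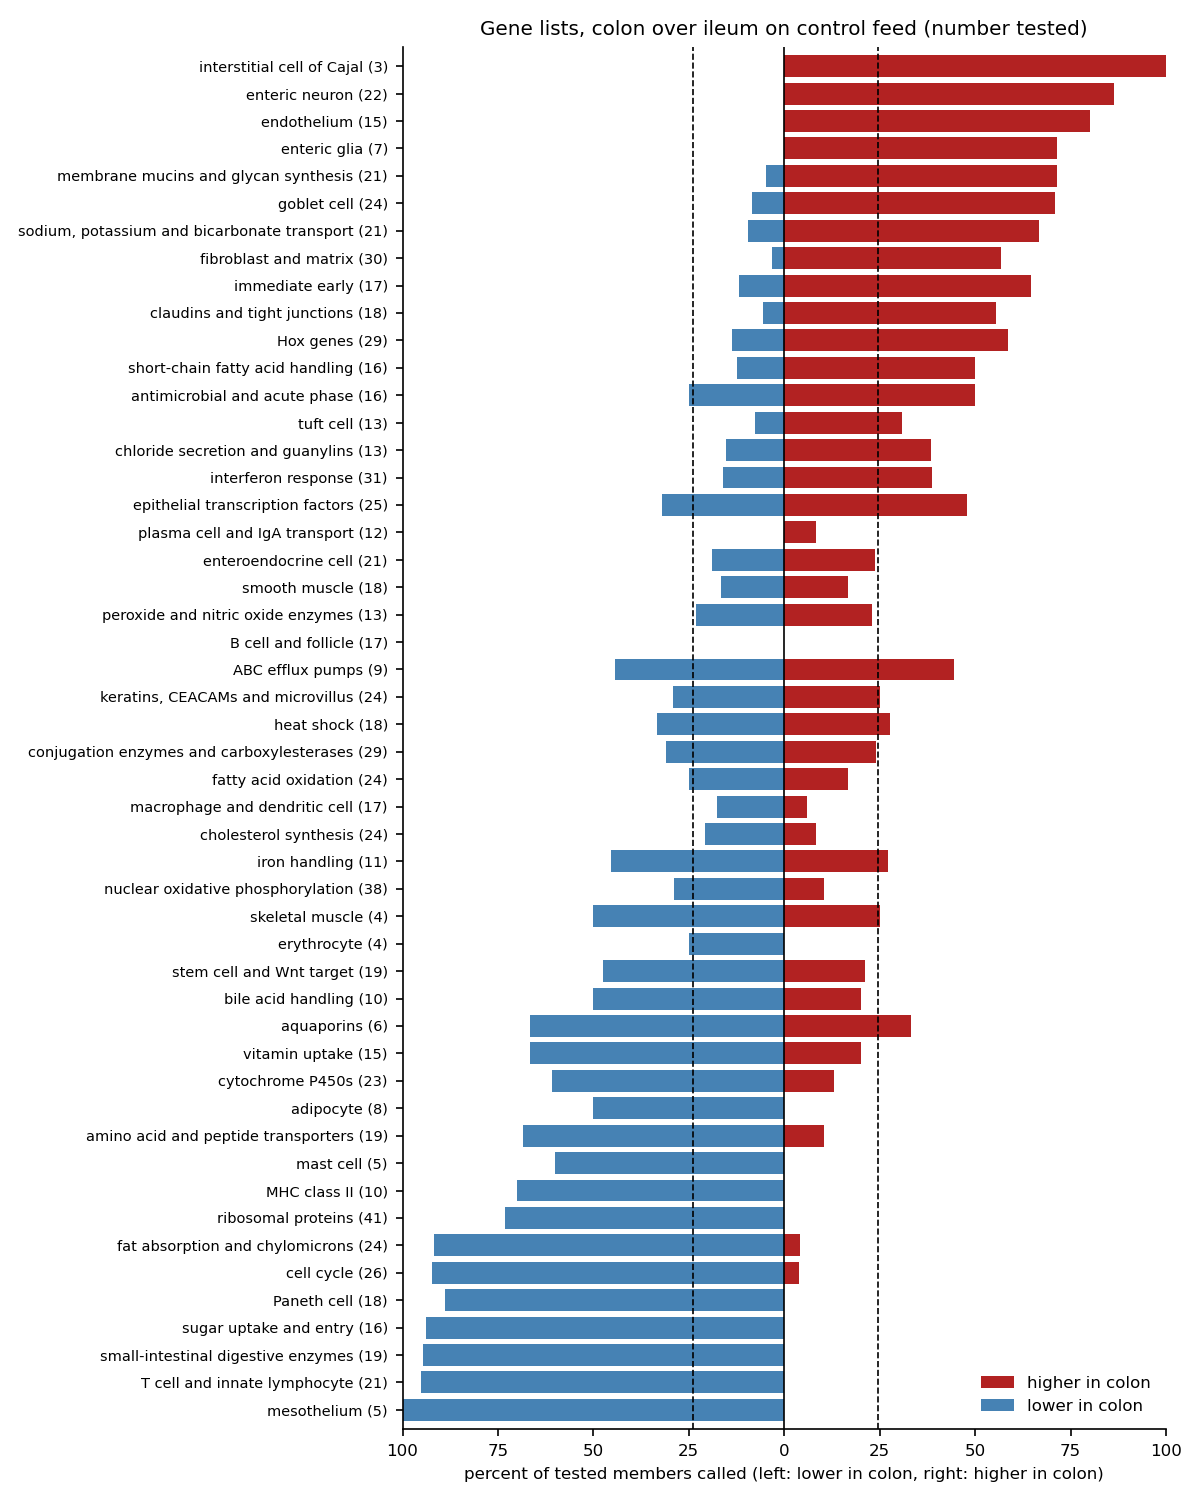
Percent of the tested members of each gene list called higher (bars to the right) or lower (bars to the left) in colon than in ileum on control feed, with the number tested beside each name. Dashed lines mark 24.6% and 23.8%, the shares of all genes tested. Lists of digestion, sugar and fat uptake, Paneth cells and T cells lie almost wholly to the left, and those of neurons, goblet cells and sodium transport mostly to the right.

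The enzymes that digest food at the brush border were lower in the colon almost without exception. Of 19 tested, 18 were called lower and none higher, with a median log2 fold change of -5.65, against -0.01 for all genes. Sucrase-isomaltase (Sis) had 28.2, 25.9, 0.650, 68.4 and 15.2 CPM in the colon libraries, against 3571, 3403, 4328 and 4497 CPM in the ileum libraries. Lactase (Lct) had 0.604, 0.116, 0.118, 9.22 and 0.164 CPM in the colon libraries, against 1238, 598, 291 and 392 CPM in the ileum libraries. Aminopeptidase N (Anpep) had 8.29, 78.1, 11.1, 126 and 7.87 CPM in the colon libraries, against 6813, 5542, 6861 and 9087 CPM in the ileum libraries. No colon library reached an ileum library in any of these genes, and colon library 4 was the highest colon library in all 3. The angiotensin-converting enzyme Ace, a peptidase, was lower as well (-4.49 ± 0.48 on the log2 scale, adjusted p = 7.13e-05 by edgeR). Maltase-glucoamylase (Mgam) kept 173 ± 11.6 CPM in the colon, against 2835 ± 257 CPM in the ileum, with little spread among colon libraries (log2 fold change -4.03 ± 0.11, edgeR adjusted p = 2.1e-08). Mep1a, the alpha subunit of the protease meprin, was the member not called, at 662 ± 27.5 CPM in the colon and 899 ± 363 CPM in the ileum (edgeR adjusted p = 0.106, 0.0413 without ileum library 1), while the beta subunit Mep1b was lower (-2.59 ± 0.14).

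Sugar uptake was lower in 15 of 16 genes tested and higher in none (median -4.05). The glucose and galactose transporter Slc5a1 (SGLT1) had 223, 172, 217, 219.8 and 147 CPM in the colon libraries, against 3497, 2400, 2512 and 2808 CPM in the ileum libraries (log2 fold change -3.84 ± 0.18). The basolateral glucose carrier Slc2a2 (GLUT2) had 0, 0, 0, 2.52 and 0 CPM in the colon libraries, against 311, 212, 132 and 160.2 CPM in the ileum libraries. The fructose transporter Slc2a5, ketohexokinase (Khk) and triokinase (Tkfc), which take up and process fructose, had log2 fold changes of -4.26 ± 0.34, -4.33 ± 0.28 and -3.75 ± 0.23. These fructose genes were thus lower by like amounts, while Slc2a2 was all but lost outside colon library 4. Galactokinase (Galk1) was not called (-0.38 ± 0.42), and without colon library 1 it was lower by edgeR (-0.88, adjusted p = 0.0172).

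Carriers of amino acids and peptides split: 13 of 19 were lower and 2 higher (median -2.39). The neutral amino acid transporter Slc6a19 had 1.65, 10.9, 1.89, 14.4 and 2.19 CPM in the colon libraries, against 992, 837, 907 and 797 CPM in the ileum libraries. Slc7a9 and its partner Slc3a1, the cystine carrier, had log2 fold changes of -4.82 ± 0.23 and -2.04 ± 0.32, and Slc43a2 -4.86 ± 0.19. The 2 higher members were Slc6a14, given above, and Slc38a2, a ubiquitous carrier of small neutral amino acids (0.88 ± 0.13). The peptide transporter Slc15a1 (PEPT1) had 1.92, 118, 367, 316 and 80.6 CPM in the colon libraries, against 918, 679, 619.9 and 658 CPM in the ileum libraries. Its groups did not overlap and it was not called (edgeR adjusted p = 0.113). Colon library 1 lay near the cecum mean of 1.24 ± 0.978 CPM, and without that library Slc15a1 was lower (-1.70, edgeR adjusted p = 0.0202).

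Fat absorption was lower in 22 of 24 genes and higher in 1 (median -4.17). Apolipoprotein A-I (Apoa1) had 1.37, 30.2, 0.355, 99.5 and 0.164 CPM in the colon libraries, against 15780, 9910, 9627 and 7839 CPM in the ileum libraries. The microsomal triglyceride transfer protein (Mttp), which loads fat onto apolipoprotein B, had 2.25, 6.04, 1.42, 22.2 and 3.88 CPM in the colon libraries, against 1978, 1681, 1450 and 1809 CPM in the ileum libraries. Apolipoprotein B itself (Apob) kept 285 ± 31.4 CPM in the colon, against 3843 ± 665 CPM in the ileum (-3.75 ± 0.15). The intestinal fatty acid binding protein Fabp2 kept 418 ± 171 CPM in the colon, against 8428 ± 1690 CPM in the ileum, while Fabp1 had 0.934, 0.233, 0.118, 1.17 and 0.218 CPM in the colon libraries, against 537, 302, 50.95 and 95.1 CPM in the ileum libraries. Fabp1 also varied widely among the ileum libraries, highest in ileum library 1. Cholesterol uptake (Npc1l1), its export (Abcg5, Abcg8) and its esterification (Soat2) had log2 fold changes of -7.63 ± 0.99, -5.65 ± 0.52, -5.90 ± 0.28 and -6.90 ± 0.37, and Npc1l1 -8.49 without colon library 4. The lipoprotein receptor Scarb1 was the member that was higher (1.04 ± 0.18, edgeR adjusted p = 0.000842), and Plin2, a coat protein of lipid droplets, was not called (0.39 ± 0.22).

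Bile acid handling moved in both directions, with 2 members higher and 5 lower of 10, against 24.6% and 23.8% of all genes tested. The ileal bile acid binding protein Fabp6 had 15.3, 25.2, 1.12, 21.2 and 6.34 CPM in the colon libraries, against 233, 1094, 4555 and 1957 CPM in the ileum libraries. Fgf15, the hormone by which the ileum tells the liver to stop making bile acids, had 0.0549, 0.233, 0, 0.112 and 0 CPM in the colon libraries, against 14.1, 29.4, 22.3 and 32.4 CPM in the ileum libraries. Fabp6 ran over a wide range among the ileum libraries, lowest in library 1 and highest in library 3, and the apical uptake carrier Slc10a2 followed the same order there, at 43.03, 128, 481 and 268 CPM. In the colon Slc10a2 had 434, 238, 9.63, 12.1 and 171 CPM, highest in library 1. Its groups overlapped and it was not called (edgeR adjusted p = 0.777). The basolateral exporter genes Slc51a and Slc51b had log2 fold changes of -2.73 ± 1.19 and -2.38 ± 0.31, and only Slc51b was called (edgeR adjusted p = 0.0887 and 0.000193), although Slc51a was lower too without colon library 1 (-3.79, adjusted p = 0.0345). The export pump Abcc3 was higher at 402 ± 69.8 CPM in the colon, against 50.1 ± 3.85 CPM in the ileum (3.0 ± 0.15), and the apical pump Abcc2 lower at 7.11 ± 2.58 CPM in the colon, against 307 ± 42.1 CPM in the ileum (-5.43 ± 0.24).

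Of 15 genes of vitamin uptake, 10 were lower and 3 higher (median -1.53). Both parts of the receptor for vitamin B12 with intrinsic factor, Cubn and Amn, had log2 fold changes of -5.33 ± 0.59 and -4.03 ± 0.75 (Amn -4.99 without colon library 1, Cubn -6.04 without colon libraries 1 and 4), and the retinol binding protein Rbp2 -4.41 ± 0.40. The 2 vitamin C carriers went apart: Slc23a1 was lower (-4.66 ± 0.52) and Slc23a2 higher (1.50 ± 0.12). Iron genes also went both ways, with 3 higher and 5 lower of 11, against 24.6% and 23.8% of all genes tested. The iron exporter ferroportin (Slc40a1) had 253, 242, 302, 257 and 193 CPM in the colon libraries, against 6.39, 19.7, 24.8 and 13.8 CPM in the ileum libraries. Every colon library was above every ileum library (3.95 ± 0.36, edgeR adjusted p = 2.52e-05), while the importer Slc11a2 and the ferrireductase Cybrd1 were lower (-0.50 ± 0.12 and -1.01 ± 0.28).

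Promoter sequences are shown for 3 of the genes that were far lower in the colon and 2 that were far higher, because CDX, GATA and HNF4 factors are the textbook regulators of enterocyte genes and members of all 3 families are measured here. Cdx2 is known to bind the sucrase-isomaltase promoter. The windows run from 250 bases before to 50 after the annotated start, from RefSeq on build GRCm38.p6: Lct at chr1:128328269-128328568 on the minus strand, Sis at chr3:72967814-72968113 on the minus strand, Slc28a1 at chr7:81114549-81114848 on the plus strand, Cyp2c55 at chr19:39006769-39007068 on the plus strand and Slc6a14 at chrX:21714650-21714949 on the plus strand. Capitals mark matches on either strand, and all other bases are in lower case. The letters searched for CDX factors were TTTATG. For GATA factors they were AGATAA, and for HNF4 factors CAAAGNCCA.
Lct: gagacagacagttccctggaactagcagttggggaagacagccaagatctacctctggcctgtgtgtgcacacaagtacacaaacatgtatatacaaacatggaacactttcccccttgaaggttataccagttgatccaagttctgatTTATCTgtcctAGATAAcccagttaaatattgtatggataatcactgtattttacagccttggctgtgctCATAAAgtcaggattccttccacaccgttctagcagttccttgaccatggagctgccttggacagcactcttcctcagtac
Sis: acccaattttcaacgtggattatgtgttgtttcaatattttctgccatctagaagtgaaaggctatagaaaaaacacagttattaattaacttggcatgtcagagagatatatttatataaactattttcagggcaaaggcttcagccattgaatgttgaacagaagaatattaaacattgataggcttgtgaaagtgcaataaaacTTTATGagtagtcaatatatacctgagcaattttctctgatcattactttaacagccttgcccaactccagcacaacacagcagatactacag
Slc28a1: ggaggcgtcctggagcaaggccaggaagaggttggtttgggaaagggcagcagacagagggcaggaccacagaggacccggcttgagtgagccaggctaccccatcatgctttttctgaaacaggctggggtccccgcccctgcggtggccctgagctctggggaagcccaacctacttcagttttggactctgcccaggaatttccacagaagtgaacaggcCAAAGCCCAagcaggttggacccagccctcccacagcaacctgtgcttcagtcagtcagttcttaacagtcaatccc
Cyp2c55: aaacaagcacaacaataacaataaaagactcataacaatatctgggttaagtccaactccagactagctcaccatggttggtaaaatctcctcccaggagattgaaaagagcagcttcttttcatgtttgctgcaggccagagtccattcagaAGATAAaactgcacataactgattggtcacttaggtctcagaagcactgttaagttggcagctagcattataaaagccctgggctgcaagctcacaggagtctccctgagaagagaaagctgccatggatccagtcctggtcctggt
Slc6a14: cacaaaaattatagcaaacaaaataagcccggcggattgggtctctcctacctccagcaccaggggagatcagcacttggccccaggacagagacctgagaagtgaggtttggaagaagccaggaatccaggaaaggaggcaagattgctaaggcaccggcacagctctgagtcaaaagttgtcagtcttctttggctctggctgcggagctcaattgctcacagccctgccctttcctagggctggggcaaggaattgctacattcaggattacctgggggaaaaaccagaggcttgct
Lct holds 1 CDX and 2 GATA matches, Sis 1 CDX match, Slc28a1 1 HNF4 match, Cyp2c55 1 GATA match and Slc6a14 none, and none of these overlap. RefSeq windows were found for 11912 of 16597 genes tested. Where a gene has several windows, it counts if any of them holds the letters. Of all these genes, 8.56% hold the CDX letters, 8.22% the GATA letters and 2.08% the HNF4 letters. Among the 241 of these genes past 8-fold lower in the colon the shares were 16.6%, 15.8% and 6.64%. For the 219 past 8-fold higher they were 14.6%, 9.13% and 2.74%. These are shares of letters and were not tested.

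The factors themselves differed in part. Gata4, Gata5 and Gata6 were all lower, with log2 fold changes of -5.88 ± 0.42, -6.00 ± 0.22 and -0.87 ± 0.09. Hnf4g was lower at 26.6 ± 6.23 CPM in the colon, against 285 ± 31.1 CPM in the ileum (-3.42 ± 0.18), while its paralog Hnf4a was slightly higher (0.48 ± 0.11). Cdx1 was higher (0.87 ± 0.25) and Cdx2 was not called, at 310.1, 224, 122, 109 and 199 CPM in the colon libraries, against 128, 109, 129.5 and 160.2 CPM in the ileum libraries. Cdx2 was lowest in colon libraries 3 and 4, and without library 4 it was higher (0.70, edgeR adjusted p = 0.0416). Of 25 epithelial transcription factors, 12 were higher and 8 lower. The higher ones included Foxa1 (2.08 ± 0.15), Klf4, a factor of differentiated surface and goblet cells (1.59 ± 0.18), and Ehf (1.52 ± 0.20). The lower ones included Maf, a factor of the enterocyte programme (-3.75 ± 0.16), and Creb3l3, a membrane-bound regulator of lipid genes (-5.15 ± 0.52, -5.99 without colon libraries 1 and 4).

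The order of Hox genes on the chromosome follows the body axis. Of 29 tested, 17 were higher and 4 lower in the colon. Hoxa10, Hoxa11, Hoxa13, Hoxb13, Hoxd11 and Hoxd13 had 0 counts in every ileum library. Against a floor of 3 counts over the ileum libraries, Hoxa10 was at least 843-fold higher, Hoxa11 116-fold, Hoxa13 885-fold, Hoxb13 2590-fold, Hoxd11 48.3-fold and Hoxd13 239-fold. With these genes at their bounds the median log2 fold change of the list was 1.76. Hoxd10 was higher by 226-fold (95% exact counting interval 40.3 to 8960), with all its ileum counts in library 1, and without that library its fitted log2 fold change was 8.89, against 7.26 with it. Hoxb13 and Hoxd13 were not called in the test against a 2-fold change (edgeR adjusted p = 0.0615 and 0.0924) or with no filter, nor Hoxb13 with limma voom. Hoxa10 had 11.8, 43.4, 43.2, 44.7 and 49.05 CPM in the colon libraries, and Hoxb13 had 0, 71.4, 249, 229 and 47.7 CPM. Hoxa10 was present in every colon library, whereas Hoxb13 was absent from library 1 and highest in libraries 3 and 4.

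The 4 Hox genes that were lower all belong to cluster C. Hoxc6 had 0.659, 0.988, 0.177, 0.0559 and 1.04 CPM in the colon libraries, against 20.01, 18.9, 19.1 and 15 CPM in the ileum libraries. Hoxc8 had 0.439, 0.639, 0.118, 0.391 and 0.874 CPM in the colon libraries, against 17.6, 16.4, 18.2 and 16.6 CPM in the ileum libraries. Hoxc4 and Hoxc5 had log2 fold changes of -2.49 ± 0.33 and -3.77 ± 0.26, and the groups of all 4 stood apart. Cluster B genes of the middle of the axis ran opposite to Hoxb13 among the colon libraries: Hoxb6 had 110, 54.9, 4.55, 3.52 and 49.5 CPM in the colon libraries, against 16.1, 10.7, 11.2 and 10.4 CPM in the ileum libraries. Colon library 1 was the highest and libraries 3 and 4 were below every ileum library. Hoxb6, Hoxb7 and Hoxb8 were not called (edgeR adjusted p = 0.123, 0.353 and 0.431), and without colon library 4 Hoxb6 was higher (2.18, adjusted p = 0.0405). Without colon libraries 1 and 4, 18 Hox genes were higher and 4 lower.

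**Figure D3:**
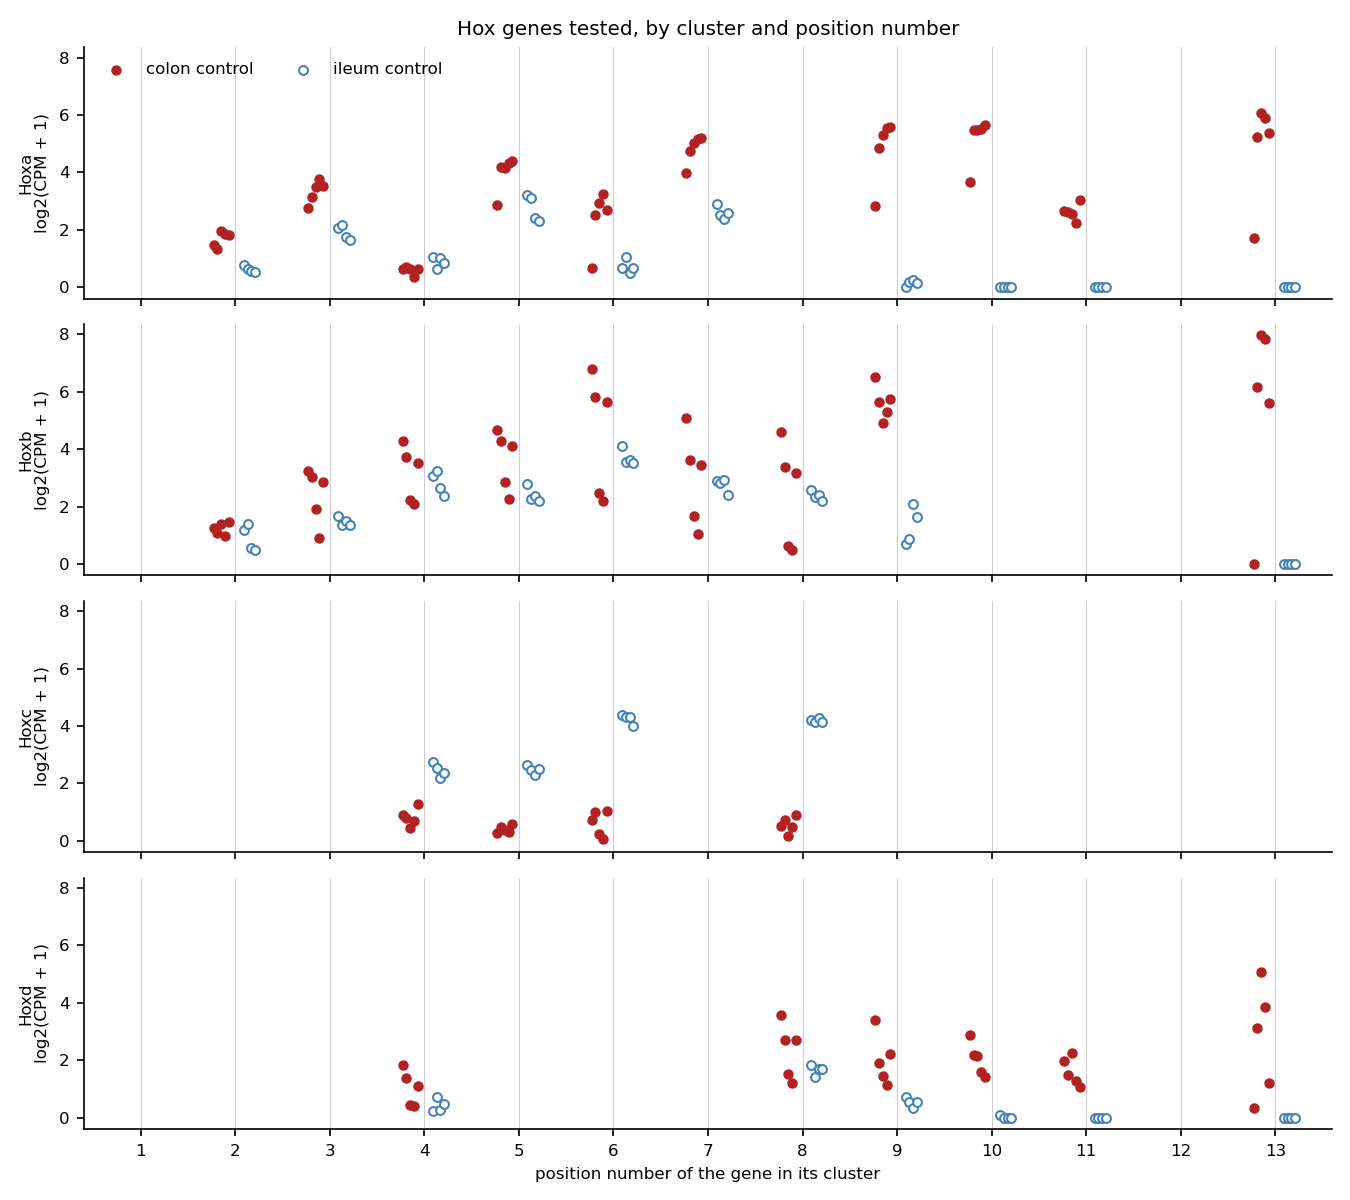
Hox genes tested, in rows by cluster and in columns by position number, with each library as a point at log2(CPM + 1). Filled red points are colon control libraries and open blue points ileum control libraries. Genes numbered 10 to 13 sit at 0 or almost 0 in the ileum, while Hoxc4, Hoxc5, Hoxc6 and Hoxc8 are lower in the colon.

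Paneth cell genes were lower in 16 of 18 genes and higher in none (median -8.32, -11.60 without colon library 4 and -11.42 without colon libraries 1 and 4). Lysozyme 1 (Lyz1) had 4.61, 5.41, 7.80, 96.0 and 2.79 CPM in the colon libraries, against 5114, 3931, 7336 and 6570 CPM in the ileum libraries. The protease matrilysin (Mmp7), which activates alpha-defensins, had 0.714, 0.988, 0, 1.51 and 0.437 CPM in the colon libraries, against 60.1, 54.9, 113 and 89.7 CPM in the ileum libraries. Outside colon library 4, alpha-defensins were at or near 0 in the colon. The angiogenin Ang4, an antimicrobial protein of Paneth and goblet cells, was 1 of the 2 members not called, with 10.3, 398, 1241, 1118 and 181 CPM in the colon libraries, against 725, 303, 614 and 532 CPM in the ileum libraries. Its log2 fold change was 0.12 ± 0.97 (adjusted p = 0.931 by edgeR), and colon library 1 was below every ileum library while libraries 3 and 4 were above every one. The other was Clps, the cofactor of pancreatic lipase (-1.20 ± 0.69, adjusted p = 0.18 by edgeR).

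Antimicrobial and acute-phase genes changed sides by family: 8 of 16 were higher and 4 lower. The C-type lectins Reg3b and Reg3g, which act against bacteria at the ileal surface, were lower. Reg3b had 74.97, 284, 0.887, 33.5 and 105 CPM in the colon libraries, against 2608, 10340, 9153 and 5284 CPM in the ileum libraries, and Reg3g had a log2 fold change of -6.96 ± 1.04. Serum amyloid A1 (Saa1) had 277, 1268, 2008, 1507 and 645 CPM in the colon libraries, against 3.07, 16.3, 18.1 and 5.79 CPM in the ileum libraries. Wfdc2, a small protease inhibitor, had 33.2, 53.5, 119.6, 113 and 47.7 CPM in the colon libraries, against 0.120, 0.118, 0.466 and 0.114 CPM in the ileum libraries. The groups of Saa1 and Wfdc2 stood apart, with colon library 1 the lowest colon library in both. Saa1 is close in sequence to its neighbour Saa2, so its own count is uncertain. Retnlb, the goblet cell resistin-like molecule, had 7.96, 146, 343, 231 and 75.9 CPM in the colon libraries, against 0.422, 0.533, 0 and 0.341 CPM in the ileum libraries.

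Goblet cell genes were higher in 17 of 24 and lower in 2 (median 1.50). The mucin Muc2, the backbone of the mucus gel, had 8863, 5344, 5106, 6164 and 6680 CPM in the colon libraries, against 2493, 2071, 2500 and 2489 CPM in the ileum libraries (1.43 ± 0.17, edgeR adjusted p = 7.79e-05). The secretory cell factor Atoh1 and the goblet cell factor Creb3l1 had log2 fold changes of 1.58 ± 0.14 and 2.63 ± 0.13, and Spdef, which drives goblet cell maturation, was higher at 61.7 ± 21.6 CPM in the colon, against 20.4 ± 4.42 CPM in the ileum. The mucus protein Clca1 had 2112, 7400, 16670, 18460 and 5575 CPM in the colon libraries, against 2352, 2020, 3050 and 2218 CPM in the ileum libraries. It was called (2.06 ± 0.58), though colon library 1 lay within the ileum range. The fucosyltransferase Fut2 was higher (5.28 ± 0.45, 5.97 without ileum library 2). The 2 members that were lower, the trefoil peptide Tff3 (-0.74 ± 0.21) and Spink4 (-1.09 ± 0.23), are also goblet cell products, and Zg16, a lectin that aggregates Gram-positive bacteria, was not called (0.04 ± 0.21). Membrane mucins and glycan enzymes were higher in 15 of 21, among them Muc4 (2.66 ± 0.30) and the sialyltransferase St6galnac6 (5.64 ± 0.25), while the sialyltransferase St3gal4 was lower (-2.03 ± 0.36).

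Transport of sodium, potassium and bicarbonate was higher in 14 of 21 genes and lower in 2 (median 1.70). The alpha subunit of the epithelial sodium channel (Scnn1a) had 54.9, 189.5, 375, 337 and 169.8 CPM in the colon libraries, against 11.9, 9.88, 12.3 and 12.2 CPM in the ileum libraries. The beta subunit (Scnn1b) had 3.95, 6.86, 10.8, 11.3 and 4.04 CPM in the colon libraries and was higher by 243-fold (95% exact counting interval 66.9 to 2010). The enzyme that shields the aldosterone receptor from glucocorticoids (Hsd11b2) had 164, 229, 268, 227 and 225 CPM in the colon libraries, against 3.62, 6.98, 10.5 and 8.01 CPM in the ileum libraries. Channel subunits, this enzyme and the aldosterone receptor Nr3c2 (1.86 ± 0.15) were all higher with no overlap. The non-gastric proton-potassium pump of the colon (Atp12a) had 2.25, 381, 985, 856 and 71.6 CPM in the colon libraries and was higher by 9920-fold (95% exact counting interval 3390 to 48100), although colon library 1 held little of it. The sodium-proton exchanger Slc9a3 and the chloride-bicarbonate exchanger Slc26a3 had log2 fold changes of 2.77 ± 0.30 and 3.03 ± 0.66. The 2 lower members were Slc26a6, another anion exchanger (-6.35 ± 0.27), and the sodium-bicarbonate carrier Slc4a4 (-1.02 ± 0.13).

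Among genes of chloride secretion, 5 of 13 were higher and 2 lower, against 24.6% and 23.8% of all genes tested. The 2 guanylin hormones, which open the chloride channel Cftr through the receptor Gucy2c, went apart. Guanylin (Guca2a) had 1827, 1427, 1217, 1310 and 1550 CPM in the colon libraries, against 747, 562, 733 and 537 CPM in the ileum libraries. Uroguanylin (Guca2b) had 39.9, 16.4, 5.14, 14.8 and 12.7 CPM in the colon libraries, against 1251, 639, 677 and 606 CPM in the ileum libraries. Neither the receptor nor the channel was called (0.12 ± 0.17 and 0.21 ± 0.17), and without ileum library 3 Cftr was higher (0.44, edgeR adjusted p = 0.0177). All 6 aquaporins tested were called, 2 higher and 4 lower. The 2 higher were the water channels Aqp8 and Aqp4: Aqp8 had 70.6, 961, 1721, 1614 and 986 CPM in the colon libraries, against 0.0603, 0.0592, 0 and 2.84 CPM in the ileum libraries, and Aqp4 had a log2 fold change of 6.47 ± 0.95. The water channels Aqp1 and Aqp11 and the glycerol channels Aqp3 and Aqp7 were lower (-2.62 ± 0.24, -1.23 ± 0.33, -6.69 ± 0.46 and -4.07 ± 0.50).

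**Figure D4:**
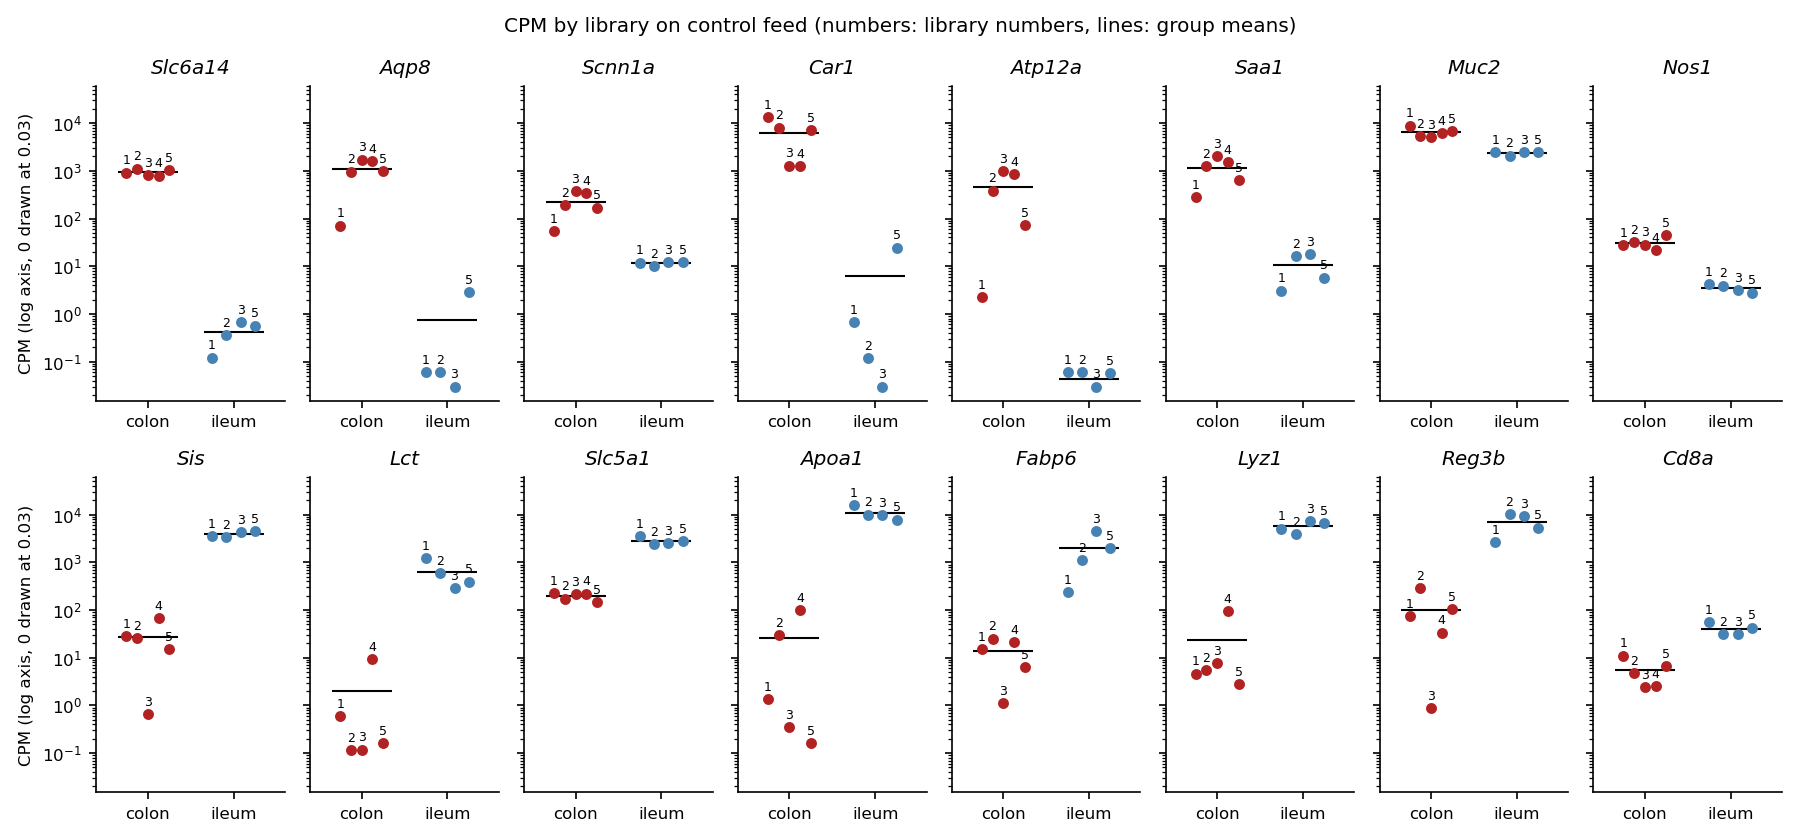
CPM of 16 genes in each control library on a log axis, with 0 drawn at 0.03. Red points are the 5 colon libraries and blue points the 4 ileum libraries, numbered as in the labels, and short lines mark group means. The upper row holds genes higher in the colon and the lower row genes lower there, and colon libraries 1 and 4 lie at the edge of the colon group in several panels.

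Handling of short-chain fatty acids was higher in 8 of 16 genes and lower in 2 (median 0.49), with 5 higher when ileum library 2 or 5 was left out. The butyrate carrier Slc16a1 was higher at 434 ± 87.96 CPM in the colon, against 112 ± 2.55 CPM in the ileum (1.95 ± 0.15). The acetate and propionate receptor Ffar2 was higher too (1.51 ± 0.20), and so was Acads, which oxidises butyrate (1.67 ± 0.29). The lactate carrier Slc5a12 was lower at 0.526 ± 1.11 CPM in the colon, against 142 ± 42.1 CPM in the ileum. Enzymes of fatty acid oxidation gave 4 higher and 6 lower of 24, against 24.6% and 23.8% of all genes tested. Cpt1a and Slc25a20, which carry fatty acids into mitochondria, were higher (1.47 ± 0.17 and 1.67 ± 0.12), while Hadh and Decr1 inside them were lower (-1.16 ± 0.19 and -1.12 ± 0.15). In cholesterol synthesis 17 of 24 genes were not called, 2 were higher and 5 lower.

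Of 23 cytochrome P450s on a list of drug and lipid oxidation, 14 were lower and 3 higher (median -1.42). The list does not hold the Cyp2d genes that led the increases. Cyp3a11, a main drug-metabolising enzyme of the small intestine, had 1.32, 0.465, 0, 5.03 and 0.0546 CPM in the colon libraries, against 396, 363, 313 and 121 CPM in the ileum libraries, and shares close sequence with other Cyp3a genes. Cyp2b10 had 0.220, 0, 0, 0.951 and 0.109 CPM in the colon libraries, against 283, 154, 90.6 and 66.1 CPM in the ileum libraries. Cyp2c55 had 4497, 2598, 638, 500.4 and 2138 CPM in the colon libraries, against 54.8, 81.4, 86.8 and 34.8 CPM in the ileum libraries. Cyp2c55 was among the higher members, again highest in colon library 1. Conjugating enzymes and carboxylesterases gave 7 higher and 9 lower of 29, against 24.6% and 23.8% of all genes tested. The sulfotransferase Sult1a1 was higher (3.57 ± 0.30). The glucuronyltransferase Ugt2a3 was lower at 0.179 ± 0.400 CPM in the colon, against 64.5 ± 34.2 CPM in the ileum. The efflux pump Abcb1a (P-glycoprotein) was higher at 839.7 ± 90.5 CPM in the colon, against 272 ± 80.1 CPM in the ileum (1.63 ± 0.19). ABC pumps in all gave 4 higher and 4 lower of 9.

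Among enzymes that make or remove peroxide and nitric oxide, 3 of 13 were higher and 3 lower. The counts were 4 and 6 without colon library 1, and 4 and 5 without colon libraries 1 and 4. Among all genes tested the shares were 24.6% and 23.8%. The colonic NADPH oxidase Nox1 and its partner Noxo1 were higher (3.67 ± 0.78 and 1.14 ± 0.21, with Nox1 at 2.98 without colon library 4). Inducible nitric oxide synthase (Nos2) had 1.92, 16.8, 5.79, 8.67 and 4.26 CPM in the colon libraries, against 151, 127, 159.9 and 145 CPM in the ileum libraries, and the epithelial glutathione peroxidase Gpx2 was lower as well (-2.77 ± 0.16). Duox2, the other epithelial peroxide source, was not called (0.35 ± 0.29), and without colon library 1 it was higher (0.56, edgeR adjusted p = 0.00359).

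Of 18 claudin and tight junction genes, 10 were higher and 1 lower (median 0.44). Cldn8, a sealing claudin of the colon, had 30.8, 72.4, 76.7, 66.98 and 31.3 CPM in the colon libraries, against 0.964, 2.13, 5.39 and 0.966 CPM in the ileum libraries. Cldn15, which forms the sodium-permeable pore of the small intestine, had 121, 77.7, 49.3, 74.9 and 98.1 CPM in the colon libraries, against 573, 432, 489 and 519 CPM in the ileum libraries. The 2 groups of each were apart, in opposite directions. Among keratins, CEACAMs and microvillus genes, 6 were higher and 7 lower of 24, against 24.6% and 23.8% of all genes tested. Ceacam1, an adhesion receptor of the epithelial surface, was higher (2.11 ± 0.21), and villin (Vil1), brush border myosin (Myo1a) and plastin 1 (Pls1) were lower (-1.38 ± 0.11, -1.17 ± 0.12 and -2.03 ± 0.13). The pan-epithelial marker Epcam was not called, at 2046 ± 82.4 CPM in the colon and 2387 ± 228 CPM in the ileum (edgeR adjusted p = 0.0862).

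Genes of cell division were lower in 24 of 26 and higher in 1, by small amounts (median -0.78). Top2a, which untangles DNA before mitosis, had 42.7, 49.6, 48.6, 49.4 and 67.1 CPM in the colon libraries, against 75.8, 121, 158 and 153 CPM in the ileum libraries. Birc5 (survivin) and Cdk1 had log2 fold changes of -1.50 ± 0.14 and -1.24 ± 0.21, and the mitotic kinase Plk1 was the one gene higher (0.86 ± 0.18). Stem cell and Wnt target genes were lower in 9 of 19 and higher in 4. The stem cell marker Lgr5 and the Wnt feedback gene Axin2 were lower (-1.05 ± 0.21 and -1.38 ± 0.15). Olfm4, a marker of small-intestinal stem cells, had 0, 0, 0.0591, 4.42 and 0 CPM in the colon libraries, against 134, 142, 288 and 199.6 CPM in the ileum libraries. The higher members included the crypt genes Prom1 (2.90 ± 0.17), Ephb2 (1.16 ± 0.21) and Ephb3 (1.03 ± 0.14).

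Hormone genes of the gut were called about as often as all genes tested (24.6% higher, 23.8% lower): 5 of 21 were higher and 4 lower (median -0.07). Insulin-like peptide 5 (Insl5), a hormone of colonic L cells, had 1.43, 14.99, 43.1, 56.8 and 11.1 CPM in the colon libraries and 0 counts in the ileum, at least 556-fold higher. Peptide YY (Pyy) had 74.1, 54.5, 67.7, 67.99 and 41.7 CPM in the colon libraries, against 17.5, 16.3, 21.9 and 19.5 CPM in the ileum libraries. Tph1, which makes serotonin in enterochromaffin cells, was higher (2.18 ± 0.23), and the upper-gut hormone cholecystokinin (Cck) was lower (-2.32 ± 0.29). Another hormone of the upper gut, Gip, had 0, 0, 0, 0.503 and 0 CPM in the colon libraries, against 41.6, 21.7, 12.2 and 18.4 CPM in the ileum libraries. Glucagon (Gcg, the precursor of GLP-1), chromogranin A (Chga) and neurotensin (Nts) were not called (-0.20 ± 0.26, 0.07 ± 0.25 and -1.81 ± 0.98). Among 13 tuft cell genes 4 were higher and 1 lower, with the marker Dclk1 higher (1.17 ± 0.17) and the tuft cell factor Pou2f3 not called (-0.25 ± 0.24).

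Nerve genes were higher in the colon. Of 22 enteric neuron genes 19 were higher and 0 lower (median 1.47), of 7 glial genes 5 were higher (3 without ileum library 5), and all 3 genes of the pacemaker cells of Cajal were higher. Neuronal nitric oxide synthase (Nos1) had 27.5, 31.7, 28.2, 21.5 and 44.1 CPM in the colon libraries, against 4.22, 3.91, 3.13 and 2.78 CPM in the ileum libraries. The vesicular acetylcholine transporter Slc18a3 had 4.39, 4.24, 5.02, 2.79 and 4.10 CPM in the colon libraries, against 1.21, 0.592, 1.07 and 0.454 CPM in the ileum libraries. Calretinin (Calb2), the neuronal RNA binding protein Elavl4 and the glial factor Sox10 had log2 fold changes of 2.45 ± 0.26, 1.63 ± 0.22 and 1.74 ± 0.28. In these 5 genes every colon library was above every ileum library, whereas the neuropeptide Vip was not called (0.41 ± 0.22). Kit and Ano1 marked the pacemaker list (1.09 ± 0.13 and 2.66 ± 0.59). Ano1 had 35.1, 164, 361, 342 and 150.2 CPM in the colon libraries, and this chloride channel is also made by epithelium.

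Smooth muscle genes did not follow the nerves. Of 18, 3 were higher and 3 lower (median 0.13), against 24.6% and 23.8% of all genes tested. The smooth muscle myosin Myh11 had 1814, 2259, 2122, 1677 and 2384 CPM in the colon libraries, against 2033, 1735, 1262 and 1091 CPM in the ileum libraries, and was not called (0.42 ± 0.19). Ileum library 1 was the highest ileum library, and without it Myh11 was higher (0.60, edgeR adjusted p = 0.0266). The regulator calponin (Cnn1) was higher (1.04 ± 0.25) and myosin light chain kinase (Mylk) lower (-0.80 ± 0.17). Without colon libraries 1 and 4 the split was 7 higher and 2 lower, and 7 genes were higher without ileum library 1 and 5 without colon library 1. Fibroblast and matrix genes were higher in 17 of 30 and lower in 1, among them the matricellular proteins Postn (1.31 ± 0.20) and Thbs1 (1.97 ± 0.25), while decorin (Dcn) was not called (-0.32 ± 0.17). Endothelial genes were higher in 12 of 15 and lower in none, with Plvap at 1.27 ± 0.11, the vascular growth factor receptor Kdr at 0.98 ± 0.16 and the lymphatic receptor Flt4 at 1.85 ± 0.30.

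T cell and innate lymphocyte genes were lower in 20 of 21 and higher in none (median -2.24). The coreceptor Cd8a had 11.1, 4.77, 2.42, 2.57 and 6.61 CPM in the colon libraries, against 55.3, 31.6, 31.04 and 42.6 CPM in the ileum libraries. Granzyme A (Gzma), a killer cell protease abundant in intraepithelial lymphocytes, had 18.5, 8.83, 1.06, 2.57 and 7.10 CPM in the colon libraries, against 208, 126, 109 and 149 CPM in the ileum libraries. The integrin Itgae, which anchors lymphocytes to epithelium, was lower (-2.52 ± 0.18). In these 3 genes colon library 1 was the highest colon library, and the groups did not overlap. Of 10 MHC class II genes 7 were lower and none higher, and H2-Aa had 289, 368, 162, 169.7 and 364 CPM in the colon libraries, against 1788, 1410, 1589 and 1263 CPM in the ileum libraries. The class II regulator Ciita was lower too (-1.99 ± 0.23). Macrophage and dendritic cell genes gave 1 higher and 3 lower of 17, against 24.6% and 23.8% of all genes tested. Without colon library 4, 5 of these macrophage and dendritic cell genes were lower. The macrophage complement gene C1qa was not called (-0.09 ± 0.17).

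No B cell gene of 17 was called by edgeR, DESeq2 or limma voom, and 0 were at an unadjusted p under 0.05 (median -1.15, -1.82 without colon library 4). Both groups held libraries with many and with few B cell reads: the summed list ran from 19.5 to 161 CPM in the colon libraries and from 19.98 to 256 CPM in the ileum libraries. Plasma cell genes gave 1 higher and 0 lower of 12, and the IgA carrier Pigr was not called (0.13 ± 0.21). The one higher, Sdc1, is also made by epithelium (1.58 ± 0.24). The mucosal mast cell protease Mcpt1 had 0.275, 0.523, 0.887, 0.559 and 0.164 CPM in the colon libraries, against 20.2, 7.22, 6.06 and 8.52 CPM in the ileum libraries, and 3 of 5 mast cell genes were lower.

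Interferon response genes were higher in 12 of 31 and lower in 5 (median 0.37). Irf7, the amplifier of the type I response, had 501, 590.1, 338, 134 and 558 CPM in the colon libraries, against 125, 113, 96.3 and 98.7 CPM in the ileum libraries. Rsad2, an antiviral enzyme, had 43.4, 105, 84.6, 20.5 and 66.9 CPM in the colon libraries, against 6.21, 8.17, 5.39 and 7.95 CPM in the ileum libraries. Colon library 4 was the lowest colon library in both and library 2 the highest. The genes that were lower included the immunoproteasome subunits Psmb8 and Psmb9 (-1.42 ± 0.32 and -1.86 ± 0.27). Without colon libraries 1 and 4 the counts became 19 higher and 5 lower.

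Immediate early genes, which respond to handling within minutes, were higher in 11 of 17 and lower in 2 (7 higher without ileum library 3), with Jun at 1.39 ± 0.23 and Egr1 at 2.11 ± 0.45 and the cytokine feedback gene Socs3 lower at -2.71 ± 0.35. Against 24.6% and 23.8% of all genes tested, heat shock genes gave 5 higher and 6 lower of 18. Of these, Hspa1a and Hspa1b were higher (2.55 ± 0.34 and 2.48 ± 0.22), and the reads of these near-identical genes cannot be cleanly split. Ribosomal protein genes were lower in 30 of 41 and higher in none (median -0.46), and in 40 without colon libraries 1 and 4. Genes of oxidative phosphorylation gave 4 higher and 11 lower of 38 (median -0.17), against the same 24.6% and 23.8%. Without colon library 1, 18 of them were lower.

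Markers of fat, mesothelium, pancreas, skeletal muscle, red cells and squamous epithelium were read as well. Fat cell genes were lower in 4 of 8, and their summed level was 161 to 1177 CPM in the colon libraries and 1168 to 2464 CPM in the ileum libraries, with none of the 4 defining genes at 0. All 5 mesothelial genes were lower, with summed levels of 17.1 to 58.9 CPM in the colon libraries and 106 to 158 CPM in the ileum libraries. Digestive enzymes of the pancreas summed to 968 and 806 CPM in colon libraries 2 and 3, but to at most 1.95 CPM in the other colon libraries and 2.90 CPM in the ileum libraries. Of these genes 1 of 10 was tested, Pnliprp1, which edgeR did not call (4.29 ± 1.83, adjusted p = 0.082). It was called by DESeq2 (4.31, adjusted p = 0.0174) and by edgeR without colon library 4 (4.61, adjusted p = 0.0499), without colon libraries 1 and 4 (5.05, adjusted p = 0.0217), and in the fits of 13 and 27 libraries (adjusted p = 0.0434 and 0.0199). Skeletal muscle (1 higher, 2 lower of 4), red cell (1 lower of 4) and squamous epithelium genes (2 tested, none called by edgeR, DESeq2 or limma voom, 0 at an unadjusted p under 0.05) summed to at most 58.6 CPM in any library. Of their defining genes the muscle myosin Myh4 was at 0 in every library, and the squamous keratins Krt5 and Krt13 in every ileum library. The part of these tissues in the results was not tested.

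The same contrast was made in the arsenic-fed mice, whose libraries share no sample with the control ones. There 9034 of 16631 genes tested were called (54.3%), 4411 higher in the colon (26.5%) and 4623 lower (27.8%). Of 7904 genes called on control feed and tested on arsenic feed, 7602 (96.2%) had the same sign on arsenic feed and 6058 (76.6%) were also called with it, while 18 were called with the opposite sign. Of 648 genes past 8-fold, 645 were called with the same sign and 1 had the opposite sign. Across 16258 genes the 2 sets of log2 fold changes correlated at r = 0.936, as a description, since genes are not independent replicates.

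The leading groups of genes showed their direction again on arsenic feed. Against 27.8% of all genes lower there, 18 of 20 digestive enzymes, 16 of 16 sugar genes and 22 of 24 fat genes were lower. Against 26.5% of all genes higher, 20 of 22 neuron genes and 22 of 29 Hox genes were higher. Slc6a14 averaged 937 ± 136 CPM in colon and 0.469 ± 0.652 CPM in ileum on arsenic feed (n = 4 colon and 5 ileum libraries), with a log2 fold change of 10.89 ± 0.71. Slc15a1, not called on control feed, was lower on arsenic feed (-2.45 ± 0.52, edgeR adjusted p = 0.00303). Some groups gave other counts. Smooth muscle had 15 of 18 genes higher on arsenic feed, against 3 on control feed, and the endothelium had 4 of 15, against 12. Immediate early genes had 6 of 17 higher on arsenic feed (median 0.25), against 11 on control feed (median 0.85). Oxidative phosphorylation had 28 of 38 genes lower and 0 higher on arsenic feed, against 11 and 4 on control feed. Fatty acid oxidation had 11 of 24 lower, against 6, and mesothelium 2 of 5 lower, against 5. B cell genes had 5 of 17 lower on arsenic feed (median -2.46), against 0 on control feed (median -1.15). Plasma cell genes had 5 of 12 lower, against 0. Fat cell genes had 0 of 8 lower on arsenic feed, against 4 on control feed. Other lists moved as well and are not all given here. Differences between the diets were tested gene by gene and not for lists.

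**Figure D5:**
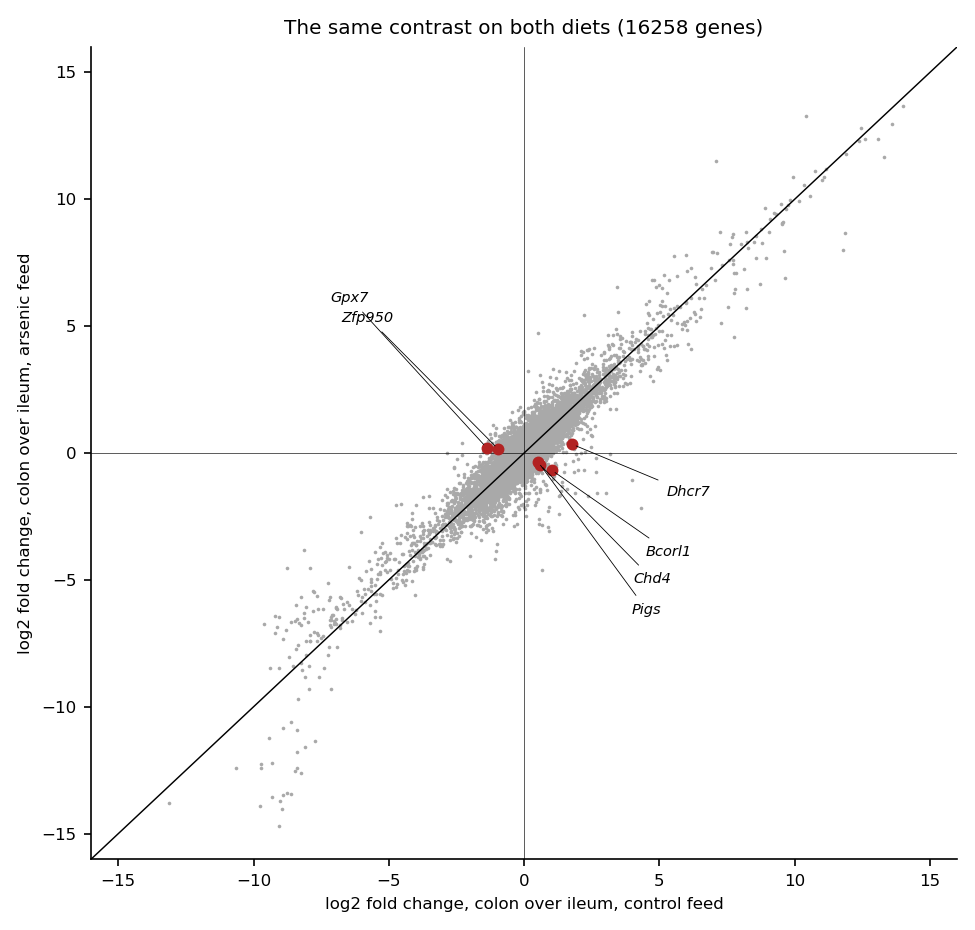
Log2 fold change, colon over ileum, of each gene tested on both diets, with the control-feed value on the x axis and the arsenic-feed value on the y axis. Grey points are all 16258 genes and red points the genes whose contrast differed between diets by the test of the difference. The line marks equal values, and most genes with large changes lie near it.

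The contrast itself differed between the diets in 6 of 17481 genes by the edgeR test of the difference (0.0343%), and 2424 were at an unadjusted p under 0.05. Dhcr7, the last enzyme of cholesterol synthesis, averaged 84.1 ± 4.64 CPM in colon and 66.3 ± 11.5 CPM in ileum on arsenic feed, against 98.1 ± 9.32 CPM in colon and 28.5 ± 8.14 CPM in ileum on control feed. Its difference, control-feed contrast minus arsenic-feed contrast, was 1.45 ± 0.23 (log2, edgeR adjusted p = 0.0278). The chromatin remodeller Chd4, the corepressor Bcorl1 and Pigs, a subunit that attaches lipid anchors to proteins, had differences of 1.04 ± 0.17, 1.70 ± 0.28 and 0.87 ± 0.14. Chd4 had a log2 fold change of -0.45 on arsenic feed, against 0.58 on control feed, and Bcorl1 -0.67 on arsenic feed, against 1.02 on control feed. Zfp950, a zinc finger gene, had a difference of -1.12 ± 0.16, with 0.17 on arsenic feed, against -0.96 on control feed. The count was 0 with a replicate block and 342 with DESeq2, and it moved with single libraries. It was 0 without colon arsenic library 12, 13 or 15, ileum arsenic library 13 or 14, or ileum control library 1, 2 or 3. It was 3 without colon control library 3, 14 without colon control library 5, 11 and 87 without ileum arsenic libraries 15 and 11, and 18 without ileum control library 5.

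The cecum, which lies between ileum and colon, was read in control mice for comparison. Slc6a14 averaged 935 ± 137 CPM in colon, 645 ± 58.4 CPM in cecum and 0.427 ± 0.242 CPM in ileum, and Sis 27.7 ± 25.2, 2.41 ± 4.33 and 3950 ± 543 CPM. Both genes had the cecum on the side of the colon. Muc2 averaged 6431 ± 1498 CPM in colon, 1417 ± 82.2 CPM in cecum and 2388 ± 212 CPM in ileum, with the cecum below both. Atp12a averaged 459 ± 447 CPM in colon and 0.0965 ± 0.0630 CPM in cecum, and Hoxb13 119.6 ± 112 CPM in colon and 0.0157 ± 0.0314 CPM in cecum, so both were high in colon libraries 2 to 5 and near 0 in the cecum as in colon library 1. Ang4 averaged 589.5 ± 557 CPM in colon, 4.14 ± 1.88 CPM in cecum and 544 ± 179 CPM in ileum, with the cecum again the lowest.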

How the data were processed

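The deposited values were whole-number read counts per gene made by the authors. Per the submitters' processing notes the tools were HISAT2 2.1.0 (an aligner), SAMtools, HTSeq 0.6.0 (a read counter) and DESeq2 1.6.3. The genome build, gene annotation and strand setting of the counting are not given in the sources used here. The counts were used as deposited.

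Genes were kept by edgeR's filterByExpr (minimum count 10, minimum total 15) and scaled by TMM. They were tested with edgeR 4.0.16's quasi-likelihood test in R 4.3.3, on the 9 control libraries alone, with Benjamini-Hochberg adjusted p under 0.05 over all genes tested. The arsenic libraries were fitted in the same way, and the difference between diets as an interaction over 18 libraries. CPM were scaled by TMM, and log2 fold changes carry their standard error. Floors and counting intervals (95%, exact, 3 counts) cover counting error only. On simulated counts for 16597 genes with 200 changed, 51% of 2-fold and 97% of 4-fold changes were recovered, and 1.99% of calls were false. In the data 8025 genes were called, far more than were changed in the simulation, so these rates need not hold for this contrast.

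The comparison and its 52 gene lists (957 genes) were chosen with earlier results of these data known. Genes were named by a rule. It took the 15 largest changes each way with no overlap and a mean of at least 10 CPM. It also took the 5 smallest p of the diet difference. Both choices left out predicted, clone-named, unnamed, immunoglobulin and T cell receptor genes. The rule also took every Hox gene. From each list it took the first 4 genes, the 6 most abundant and the 4 with the smallest p each way. Abcg5, Abcg8, Ace, Cdk1, Cdx2, Clps, Creb3l3, Egr1, Fabp1, Galk1, Gata6, Gucy2c, Mep1a, Mptx1, Plin2, Retnlb, Slc3a1, Soat2 and Spdef fall outside it and were chosen after their values were seen. Some genes that the rule names are not reported here. The genes of the heat map and the genes whose promoters are shown were picked in the same way. Alternatives were other scalings and filters, DESeq2 1.42.0, limma 3.58.1 (voom), a test against 2-fold, larger fits, a replicate block, each library left out, and colon libraries 1 and 4 left out. Plots used matplotlib 3.10.9.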

Additional observations from a re-analysis of the deposited data

Results flagged for a closer look

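The libraries of each control group were compared for 229 genes of the text, and 57 of 458 groups held 1 library set far from the others by Dixon's criterion. Chance flags about 1 in 20 groups where values vary continuously. That rate was not measured here and need not hold for genes of a few counts, such as Hoxd10, Cyp2d9 and Atp12a in the ileum and Defa32 in the colon. Of the 57, 27 fell on colon library 4, 11 on colon library 1 and 17 on ileum libraries.

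Colon library 4 stood above the other colon libraries in genes of the small intestine. Among Paneth cell genes it read Lyz1 at 96.0 CPM, Defa24 at 35.7, Defa22 at 22.6, Defa21 at 20.0, Defa30 at 10.2, Defa29 at 3.58, Defa34 at 1.51, Defa2 at 0.951, Defa36 at 0.559, Defa37 at 0.335, Defa35 at 0.224 and Defa32 at 0.112 CPM. Among genes of digestion, uptake and fat transport it read Mttp at 22.2 CPM, Abcc2 at 11.7, Lct at 9.22, Slc26a6 at 6.32, Slc2a2 at 2.52, Slc5a12 at 2.52, Apoc3 at 1.62, Gimd1 at 1.23 and Fam151a at 0.391 CPM. It read the stem cell marker Olfm4 at 4.42 CPM, the hormone Gip at 0.503 CPM, and the metabolic enzymes Cyp3a11 at 5.03, Cyp2b10 at 0.951, Ugt2a3 at 0.895 and Hsd17b6 at 0.503 CPM. In 14 of these 27 genes no other colon library held a count.

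Colon library 1 was below the other colon libraries in Hoxa10 (11.8 CPM), the exchanger Slc9a3 (613 CPM), Mep1b (177 CPM), Slc38a2 (197 CPM) and the microvillus gene Pls1 (347 CPM). It was above them in Amn (41.5 CPM), Aqp1 (77.8 CPM), Itgae (7.63 CPM), Sdc1 (404 CPM), Spdef (99.3 CPM) and Chd4 (204 CPM). Colon library 2 was above the others in Socs3 (30.5 CPM) and colon library 5 in Top2a (67.1 CPM).

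Ileum library 1 was above the other ileum libraries in Guca2b (1251 CPM), Khk (471 CPM), Aqp1 (447 CPM), Hoxb6 (16.1 CPM), Galk1 (22.1 CPM) and Hoxd10 (0.0603 CPM). Ileum library 2 was above them in Fut2 (10.3 CPM) and below them in Muc2 (2071 CPM). Ileum library 3 was above them in Muc3 (3253 CPM), Wfdc2 (0.466 CPM) and Cyp2d9 (0.200 CPM) and held no count of Atp12a (0 CPM). Ileum library 5 was above them in the colon genes Car1 (24.6 CPM) and Aqp8 (2.84 CPM), and in Ciita (60.8 CPM), Chd4 (118 CPM) and Slc25a20 (110.5 CPM).

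The colon-ileum contrast differed between the diets in 6 genes by edgeR's test of the difference. The log2 difference, control feed minus arsenic feed, was 1.70 for Bcorl1, 1.45 for Dhcr7, 1.04 for Chd4, 0.87 for Pigs, -1.12 for Zfp950 and -1.59 for Gpx7, a peroxidase of the endoplasmic reticulum that no rule named. The adjusted p was 0.0278 for each.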

How the results depend on the processing

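The count of genes called on control feed (8025) was 7731 to 9399 under other scalings, filters, tools and fits, 1770 in the test against a 2-fold change, and 6998 to 8976 with 1 library left out. On arsenic feed it (9034) was 8952 to 9458 under other scalings, filters and tools, and 7839 to 9351 with 1 library left out. The count that differed between diets (6) was 17 with upper-quartile scaling, 12 with no filter, 342 with DESeq2 and 0 to 87 with 1 library left out. With a replicate block the counts were 7095 on control feed, 8340 on arsenic feed and 0 between diets. Same-numbered colon and ileum libraries deviated together at r = 0.15, 0.06, -0.08 and -0.06, and not every library correlated best with its own number. Whether the numbers mark shared mice is not known. No gene called in the text turned its sign under any alternative. Of the genes not called, these turned sign with the replicate block: Ang4 (-1.09), Pigr (-0.08) and Zg16 (-0.08). With limma voom Ang4 (-0.31), Chga (-0.09) and Hoxb8 (-0.34) did, and without colon libraries 1 and 4 Chga (-0.08). With 1 library left out, Ang4 ran from -0.33 to 0.44, C1qa from -0.16 to 0.02, Chga from -0.18 to 0.22, Gcg from -0.36 to 0.11, Gucy2c from -0.03 to 0.21, Pigr from -0.05 to 0.23, Slc10a2 from -1.09 to 0.25 and Zg16 from -0.06 to 0.17. Calls of Ly6g and Hoxb13 were lost with no filter (edgeR adjusted p = 0.0764 and 0.0757) and with limma voom (adjusted p = 0.106 and 0.16), Hoxd13 with no filter (0.0958), Atp12a and Tgm3 with limma voom (0.0565 and 0.0512) and Mptx1 with the replicate block (0.0626). The test against a 2-fold change lost 42 of the genes called in the text, among them Ly6g (0.0632), Hoxb13 (0.0615) and Hoxd13 (0.0924). The cause was not tested. With 5 and 4 libraries and depths of 15882378 to 18203875 counts, fold changes of genes almost absent from 1 region are limited by counts. In the simulation, 2-fold changes were recovered less often than 4-fold ones.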
